A study of Mus musculus with 6 samples.

Results

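Ly6g and its relatives of the Ly6 and Lypd families were examined by RNA-seq in the colon of mice under long-term PFOA and in control mice, with 3 libraries per group. PFOA (perfluorooctanoic acid) is a fluorinated surfactant that degrades very slowly. The members were the rows of the deposited count table whose gene symbol starts with Ly6 and a letter or with Lypd and a digit, which gave 6 of 2033 rows: Ly6g, Ly6l, Ly6g6d, Ly6g6e, Lypd6 and Lypd6b. The labels give the treatment only as PFOA or control, with no dose, time, strain, sex, age or part of the colon. They mention 6 frozen mice per group and do not say which mice entered which library, so that errors measure the spread between libraries, which may be technical. The members were thereby selected on their counts, because the table lists rows that differ between the groups. On mean raw counts 998 rows were lower and 1035 higher in PFOA, and no row had a log2 ratio between -1.08 and 0.92. The members' differences between the groups are therefore given as a description, with no test, and for a family gene without a row nothing is known here. The listed counts summed to between 1771120 and 2269892 per library; these sums cover listed rows and are not sequencing depths. Markers of colon epithelium such as Muc2, Car1 and Slc26a3 had counts in all 6 libraries.

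Ly6 and Lypd proteins carry the three-finger fold of the urokinase receptor family, in which loops held by disulfide bonds extend from a small core. Most are tethered to the outer cell membrane by a glycosylphosphatidylinositol (GPI) anchor, and a few are secreted. Ly6g is best known as the surface antigen by which mouse neutrophils are identified and depleted with antibodies, Ly6g6d and Ly6g6e are small genes of the major histocompatibility complex class III region, and Lypd6 and Lypd6b encode proteins reported to modulate nicotinic acetylcholine receptors.

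Ly6g shares its locus on chromosome 15 with near relatives, so its sequence is given first, beside that of the 3 genes with the most similar coding sequence. The stretch shown is the third of the 4 exons of the longest Ly6g transcript, which is wholly coding. All 4 stretches hold 117 bases and are read 5′ to 3′ on the gene's own strand from GENCODE M21 transcripts (mm10). Capitals mark bases that differ from Ly6g.
Ly6g, chr15:75156694-75156810, plus strand: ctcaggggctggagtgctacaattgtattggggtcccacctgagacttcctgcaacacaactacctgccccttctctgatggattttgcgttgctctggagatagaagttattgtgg
Ly6a, chr15:74996452-74996568, minus strand: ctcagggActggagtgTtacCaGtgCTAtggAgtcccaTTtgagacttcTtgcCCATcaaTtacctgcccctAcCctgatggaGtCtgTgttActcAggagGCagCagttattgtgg
Ly6f, chr15:75269780-75269896, plus strand: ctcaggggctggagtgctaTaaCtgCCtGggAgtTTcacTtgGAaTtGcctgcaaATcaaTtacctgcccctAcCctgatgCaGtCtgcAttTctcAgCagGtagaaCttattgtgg
Ly6i, chr15:74981886-74982002, minus strand: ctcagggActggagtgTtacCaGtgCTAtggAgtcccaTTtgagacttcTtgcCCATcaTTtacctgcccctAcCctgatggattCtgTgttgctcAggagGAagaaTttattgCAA
Ly6a differed from Ly6g at 26 of these bases, Ly6f at 27 and Ly6i at 28, and the longest run without a difference was 11 bases for Ly6a, 19 for Ly6f and 11 for Ly6i. Over the whole coding sequence of 402 bases, Ly6g was 83.1% identical to Ly6a, 82.6% to Ly6f and 77.9% to Ly6i. Of the 892 stretches of 50 bases in annotated Ly6g transcripts, 4 also occur in another gene on either strand (0.448%), in Ly6i and in the pseudogene Gm28116. Reads of that length that match exactly can thus be told from the relatives over nearly all of Ly6g. Neither the read length nor the treatment of reads that map to several places is recorded in the sources at hand.

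All 6 members were lower in PFOA, and in each the 3 PFOA libraries had fewer raw counts than the 3 control libraries. Of all listed rows, 48.4% had raw counts in PFOA that lay wholly below control, so this count describes the listing and carries no test. Ly6g gave 1172, 1999 and 1737 reads in control replicates 1, 2 and 3 against 56, 12 and 12 in the matching PFOA replicate numbers. The lowest control library thus held many times the counts of the highest PFOA library, and PFOA replicate 1 stood above the other PFOA libraries. Scaled to the TMM-adjusted totals, Ly6g was 59.5-fold lower in PFOA, which edgeR fitted as -5.83 ± 0.72 on the log2 scale (SE, n = 3 libraries in each group). By that value Ly6g ranked at 50, from the most negative, among the 804 fitted rows that were lower. Without PFOA replicate 1, the log2 fold change of Ly6g was -7.13 ± 0.37 (SE). In bulk tissue, fewer cells of a type and less RNA per cell cannot be told apart.

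**Figure D1:**
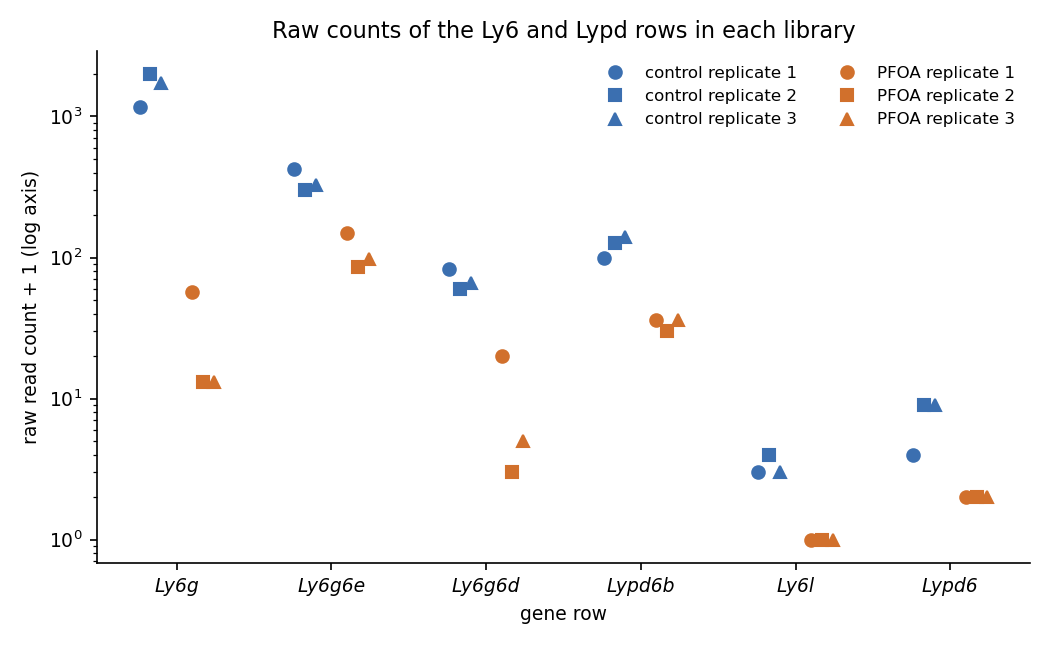
Raw read count plus 1 on a log axis for each member (x axis) in each library; colours mark the group and symbols the replicate number. In every member the 3 PFOA libraries lie below the 3 control libraries, with the widest gap in Ly6g (1172 to 1999 against 12 to 56 counts).

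Ly6g lies on chromosome 15 at 75155240 to 75159126 on the plus strand (mm10). Markers of neutrophils, the cells for which Ly6g is known, were set beside it. Of 38 neutrophil genes in the list, 2 had a row. Fpr1, a receptor for bacterial formyl peptides, gave 2, 4 and 7 reads in the control libraries against 38, 8 and 13 with PFOA, in the opposite direction to Ly6g. Padi4, the enzyme that citrullinates histones in neutrophils, gave 99, 24 and 88 reads in the control libraries against 2, 1 and 0 with PFOA. The 2 rows together held 14.0 to 57.0 CPM (counts scaled to an equal listed total per library) in control and 4.21 to 18.3 in PFOA, ranges that overlap. S100a8, S100a9, Csf3r and Cxcr2, which define neutrophils more firmly, had no row and were not analysed here. Red blood cell markers, a measure of blood in the tissue, were also lower: 5 rows for 6 of 8 genes, all lower, summed to 652.1 to 1540 CPM in control and 105.5 to 200.01 in PFOA. The 10 listed rows of 28 T and natural killer cell genes were all higher, at 63.6 to 110.7 CPM in control and 170.9 to 352.7 in PFOA. The part of neutrophils, of blood or of other immune cells in the Ly6g difference was not tested.

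Genes of colon position also differed between the groups. Their lists were chosen with earlier results of these data known, so the counts by direction carry no test. Of all listed rows, 998 were lower and 1035 higher in PFOA. All 12 listed rows of a list of 15 distal colon genes were lower in PFOA, and together they held 16588 to 21575 CPM in control against 734.2 to 1037 in PFOA. All 8 listed rows of a list of 12 proximal colon genes were higher in PFOA, with summed levels of 947.4 to 1817 CPM in control and 18955 to 21704 in PFOA. A rise was not particular to that list. Of the 9 listed rows of 20 small intestine genes, 7 were higher and 2 lower. Together they held 1062 to 1993 CPM in control and 5876 to 10089 in PFOA, and Fabp2 stood on both lists. Since the labels name no part of the colon, a difference in sampled position and an effect of PFOA cannot be told apart for Ly6g or the other members.

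The promoter of Ly6g is shown because some of its relatives without a row share short motifs with it. RefSeq (GRCm38.p6) gave promoter windows for 3 of the 6 members: Ly6g, Ly6g6d and Lypd6. The 250 bases before the first RefSeq start of Ly6g stand beside those of Ly6c1. Among family genes with a window, this Ly6c1 promoter was most like that of Ly6g. They were 58.5% identical over the aligned RefSeq windows, which are longer than the stretches shown. Another window of Ly6c1 was 38.9% identical, and Ly6a and Ly6i had no window. Each sequence is written 5′ to 3′ on the gene's strand. Capitals mark matches, on either strand, to TATAAA (the core promoter element bound by TBP), CAATAAA (part of the motif of posterior Hox and caudal proteins), TTGCNNAA (C/EBP type) and AGAGGAAG (PU.1 type); no 2 of these matches overlap.
Ly6g, chr15:75155011-75155260, plus strand: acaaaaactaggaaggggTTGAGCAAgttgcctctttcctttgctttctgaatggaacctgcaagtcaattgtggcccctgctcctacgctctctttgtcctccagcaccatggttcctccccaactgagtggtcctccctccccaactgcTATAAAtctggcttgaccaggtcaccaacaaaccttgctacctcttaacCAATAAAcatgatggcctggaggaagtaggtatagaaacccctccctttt
Ly6c1, chr15:75048838-75049087, minus strand: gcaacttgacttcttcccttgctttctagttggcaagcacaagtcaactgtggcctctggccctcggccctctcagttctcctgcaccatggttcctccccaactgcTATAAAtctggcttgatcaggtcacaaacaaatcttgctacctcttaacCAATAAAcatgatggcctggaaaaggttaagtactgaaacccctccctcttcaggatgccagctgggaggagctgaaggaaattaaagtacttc
In Ly6g, TATAAA starts 99 bases and CAATAAA 50 bases before that RefSeq start, and the C/EBP type match starts 232 bases before it. Among 32851 mouse promoters of the same length, 12.4% hold TATAAA, 4.20% CAATAAA, 9.56% TTGCNNAA and 3.67% AGAGGAAG. Of 19 Ly6 and Lypd genes with 29 windows between them, 6 hold CAATAAA in any window and 3 hold both it and TATAAA. The percentages above count single promoters, so these counts per gene cannot be set against them directly. The 3 genes with both are Ly6g, Ly6c1 and Ly6f. Ly6c1 and Ly6f had no row, so the pair of motifs is not particular to Ly6g. Ly6g6d, also a member, holds CAATAAA from 79 bases before its RefSeq start at 35074492. It holds AGAGGAAG from 227 bases before its RefSeq start at 35078056, and no TATAAA in any window. The 250 bases before the start of Lypd6 hold none of the 4 motifs and are 70.4% G or C, against 49.2% for Ly6g and a median of 52.4% over all promoters. A match is a description of the letters and shows no binding.

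Ly6l, a small family gene 290.3 kb beyond the end of Ly6g (chromosome 15, 75449457 to 75451406, plus strand), gave 2, 3 and 2 reads in the control libraries against 0, 0 and 0 with PFOA. It was at least 2.26-fold lower in PFOA against a floor of 3 counts over the PFOA group, which covers counting error only. Its counts were too low for a fit under the filter on low counts. Of its 381 stretches of 50 bases, 8 also occur in the pseudogene Gm34593 of the same region.

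Other listed rows near Ly6g were also lower. Within 1 Mb of Ly6g, all 6 listed rows had lower mean counts in PFOA: Ly6l, Gm34531, Gpihbp1, Arc, Mapk15 and the row of Eppk1 and BC024139. Gpihbp1 encodes the three-finger protein that carries lipoprotein lipase to the surface of capillaries, and it was the 1 row found for 22 three-finger genes outside the naming rule. It gave 80, 69 and 61 reads in the control libraries against 24, 31 and 42 with PFOA, 2.10-fold lower (edgeR log2 value -1.08 ± 0.32, SE, n = 3 libraries in each group). This is a far smaller difference than that of Ly6g. Mapk15, an atypical MAP kinase gene, gave 207, 79 and 114 reads in the control libraries against 15, 30 and 23 with PFOA. The 10 other annotated Ly6 and Lypd genes of chromosome 15, Ly6a, Ly6c1, Ly6c2, Ly6e and Ly6f among them, had no row and were not analysed here.

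Ly6g6d and Ly6g6e overlap on chromosome 17 on opposite strands, and their counts cannot be fully told apart because the strand setting of the counting is not given. The Ly6g6d row spans 35071443 to 35078065 on the minus strand and the Ly6g6e row 35076496 to 35078804 on the plus strand, an overlap of 1570 bases. Of the annotated exonic bases, 229 belong to both genes, 19.5% of those of Ly6g6d and 18.0% of those of Ly6g6e.

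Ly6g6d, whose human counterpart is studied as a surface antigen of colorectal tumours, gave 82, 59 and 65 reads in the control libraries against 19, 2 and 4 with PFOA. PFOA replicate 1 again lay above the other PFOA libraries and below all control libraries. The row was 7.99-fold lower (edgeR log2 value -2.94 ± 0.71, SE, n = 3 libraries in each group). Without PFOA replicate 1, the log2 fold change of Ly6g6d was -4.51 ± 0.48 (SE).

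Ly6g6e, annotated in the deposited table with acetylcholine receptor binding, gave 422, 298 and 328 reads in the control libraries against 149, 85 and 96 with PFOA. The groups did not overlap, and PFOA replicate 1 was the highest of its group. The row was 3.08-fold lower (edgeR log2 value -1.60 ± 0.34, SE, n = 3 libraries in each group).

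The share of Ly6g6d in the counts of the overlapping pair was lower in each PFOA library than in each control library. In control, Ly6g6d took 16.3%, 16.5% and 16.5% of the counts of the pair in replicates 1, 2 and 3, so that the 3 libraries were nearly equal. In PFOA replicates 1, 2 and 3 it took 11.3%, 2.30% and 4.0%. The exact 95% Clopper-Pearson interval of PFOA replicate 1 (6.95% to 17.1%) reached into the control range, while those of PFOA replicates 2 and 3 (0.280% to 8.06% and 1.10% to 9.93%) lay below it. The widest control interval, that of replicate 2, ran from 12.8% to 20.8%. These intervals cover counting error only. The PFOA shares rest on 19, 2 and 4 reads of Ly6g6d. Both rows were listed for differing between the groups, and a difference in the split was not tested.

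**Figure D2:**
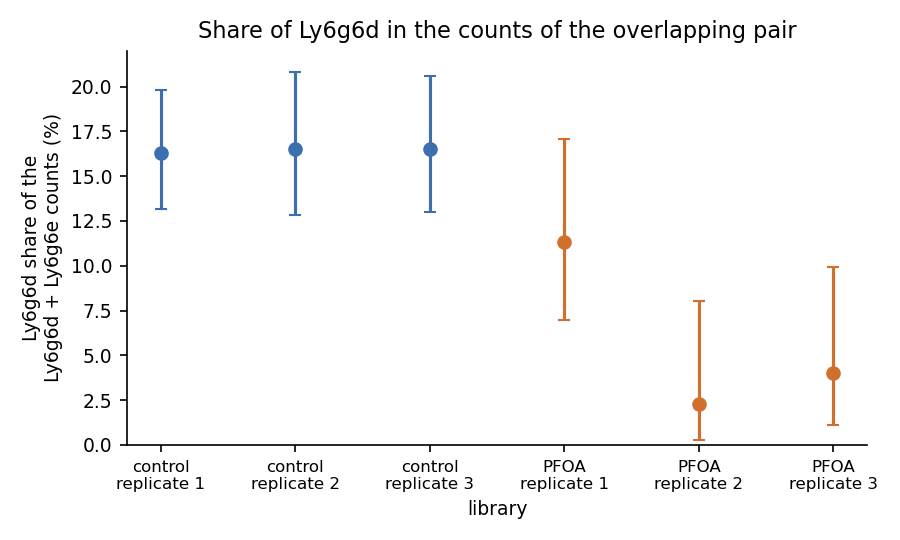
Share of Ly6g6d (percent, y axis) in the summed raw counts of Ly6g6d and Ly6g6e in each library, with exact 95% intervals for counting error as bars. Control shares span 16.3% to 16.5%, and PFOA shares span 2.30% to 11.3%.

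Within 1 Mb of Ly6g6d, 4 listed rows were lower and 8 were higher in PFOA, while the 6 near Ly6g were all lower. In the whole listing, 998 rows were lower and 1035 higher. Ly6l and Gm34531, near Ly6g, had at most 6 reads in any library. Near Ly6g6d, the higher rows Ncr3-ps and Gm8696 and the lower row Apom had at most 7. These counts by direction are a description and carry no test. The higher rows near Ly6g6d include Btnl1, a butyrophilin-like gene of the gut epithelium. Btnl2 and the row that holds Btnl4, which lie close to it, were higher too. Btnl1 gave 529, 712 and 687 reads in the control libraries against 3359, 2160 and 2054 with PFOA. The lower rows include Ly6g6e, Notch4, Apom and an unnamed assembled locus. The 4 remaining annotated Ly6 genes of that region, Ly6g6c, Ly6g6f, Ly6g5c and Ly6g5b, had no row.

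Lypd6b and Lypd6 lie next to each other on the plus strand of chromosome 2, and both annotated family genes of that chromosome had a row. Lypd6b (49787688 to 49948849) gave 98, 125 and 139 reads in the control libraries against 35, 29 and 35 with PFOA. The PFOA libraries were nearly equal, and all lay well below control. The row was 3.55-fold lower (edgeR log2 value -1.81 ± 0.30, SE, n = 3 libraries in each group). Lypd6 (50066429 to 50190670), which starts 117.6 kb beyond the end of Lypd6b, gave 3, 8 and 8 reads in the control libraries against 1, 1 and 1 with PFOA. Control exceeded PFOA by a factor of 6.14 (95% counting interval 1.81 to 32.4), and the counts were too low for a fit under the filter. The coding sequences of the pair were 49.2% identical. No stretch of 50 bases in either gene occurs in another annotated transcript.

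Of the 6 members, 4 had counts high enough for the fit (Ly6g, Ly6g6d, Ly6g6e and Lypd6b). All 4 passed edgeR's quasi-likelihood test as lower at an adjusted p under 0.05, as did 100% of the 1608 fitted rows in one direction or the other and 50% as lower. Nothing is read from this count. Their median log2 fold change was -2.37, against -0.03 over all fitted rows and -1.80 over the fitted rows that were lower. Without PFOA replicate 1 these medians were -3.26, -0.93 and -1.91. The median over all fitted rows is not the level of a typical row. Of the 1608 fitted rows, 804 were lower and 804 higher, so that it falls between them. With a library left out, it depends on which direction holds more fitted rows.

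**Figure D3:**
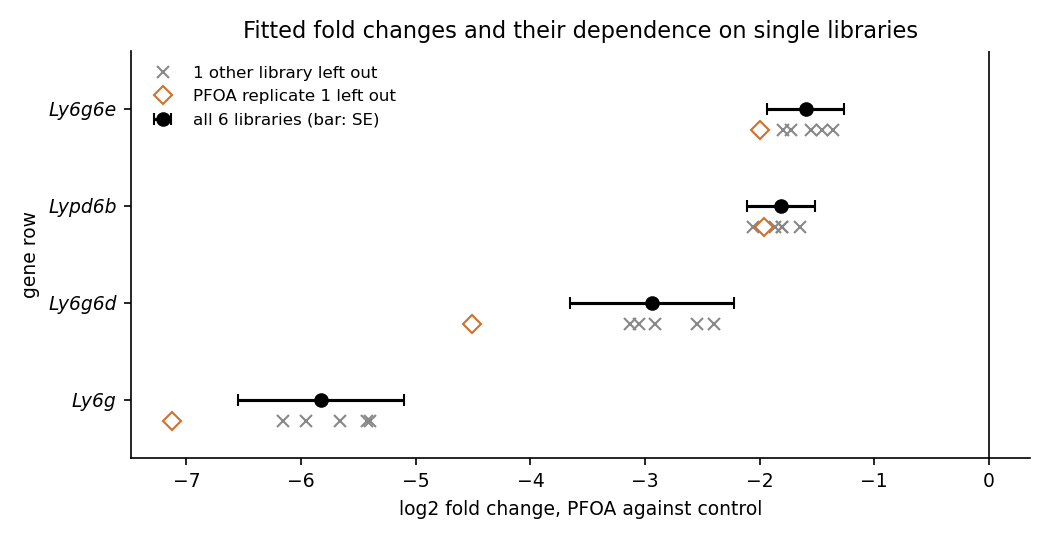
Log2 fold change, PFOA against control, of the 4 fitted members: black points with SE bars use all 6 libraries, grey crosses and orange diamonds leave out 1 library. Leaving out PFOA replicate 1 moves Ly6g to -7.13 and Ly6g6d to -4.51.

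PFOA replicate 1 had the highest scaled level of its group in all 4 fitted members, and in 35.1% of the fitted rows that were lower. Its level was 5.34 times the mean of the other PFOA libraries for Ly6g and 7.25 times for Ly6g6d. For Ly6g6e the ratio was 1.88 and for Lypd6b 1.25. The libraries of the control group varied less in Ly6g and Ly6g6d: the coefficient of variation was 25.6% in control and 102% in PFOA for Ly6g, and 19.4% and 118% for Ly6g6d. For Lypd6b it was 14.3% in control and 15.7% in PFOA.

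Levels were then compared between members per length, as TMM-scaled CPM per kb of row length. In control, Ly6g stood first at 811.1 ± 207.4 (SD, n = 3), followed by Ly6g6e at 127.9 ± 26.4, Ly6g6d at 27.9 ± 5.42 and Lypd6b at 21.9 ± 3.14. Ly6l at 2.58 ± 0.690 and Lypd6 at 0.801 ± 0.356 came last. Ly6g6d and Lypd6b were close neighbours in this order, with libraries from 24.4 to 34.1 against 18.3 to 24.2. Their ranges were separate by a narrow margin that is smaller than either SD. Ly6l (2.11 to 3.38) and Lypd6 (0.392 to 1.04) rest on 2 to 8 reads per control library, too few to order them, and the remaining neighbours were far apart. In PFOA the order changed: Ly6g6e led at 42.2 ± 16.7, ahead of Ly6g at 14.4 ± 14.7, Lypd6b at 6.24 ± 0.981 and Ly6g6d at 3.70 ± 4.34. There the ranges overlapped between Ly6g6e (30.8 to 61.4) and Ly6g (5.86 to 31.4), between Ly6g and Lypd6b (5.24 to 7.20), and between Lypd6b and Ly6g6d (0.803 to 8.69). Lypd6, at 0.132 ± 0.010, and Ly6l, with no reads, were last. Of the 4 fitted members, then, the one with the highest control level was no longer first in any PFOA library.

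**Figure D4:**
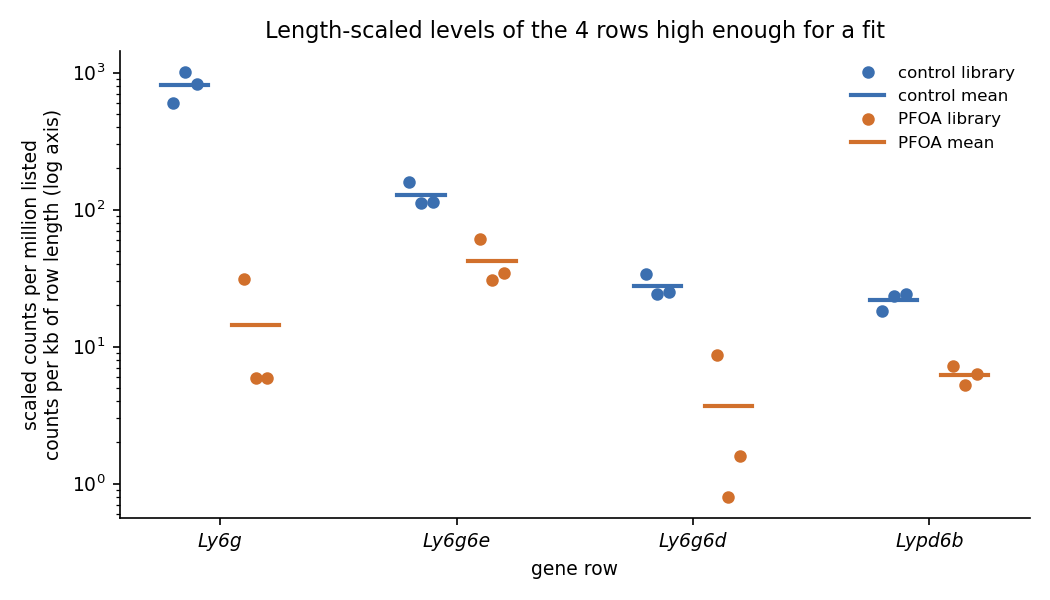
TMM-scaled CPM per kb of row length (log axis) of the 4 fitted members; dots are libraries and lines group means. Ly6g is highest in control (811.1) and below Ly6g6e in PFOA (14.4 against 42.2).

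The rows whose profile over the 6 libraries was most like that of Ly6g were found by the root mean square distance of log2 CPM (prior count 2), centred on each row's mean. The 5 nearest rows with a symbol were Avpr1b, 5033404E19Rik, AI854703, Pla2g2f and Fxyd4, at distances from 0.627 to 0.913, against a median of 2.38 over symbol rows that were lower. Avpr1b, a vasopressin receptor gene, gave 151, 93 and 110 reads in the control libraries against 5, 0 and 0 with PFOA. It shared with Ly6g the remaining signal in PFOA replicate 1. Pla2g2f, a secreted phospholipase gene, gave 878, 738 and 781 reads in the control libraries against 17, 22 and 15 with PFOA. Fxyd4, a regulator of the sodium pump, gave 282, 191 and 207 reads in the control libraries and no read with PFOA. At 5 reads or fewer per PFOA library, the prior count shapes the profiles of Avpr1b, 5033404E19Rik and Fxyd4. The fitted log2 fold change of Fxyd4 was -10.81, against -5.83 for Ly6g. The nearest member to Ly6g was Ly6g6d, at 1.56, farther than all 5 of these rows. The 5 rows were the nearest of all symbol rows outside the rule, and the other members are few. This order was thus largely fixed in advance. Distances rest on 6 libraries of rows listed for the same contrast and are a description.

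**Figure D5:**
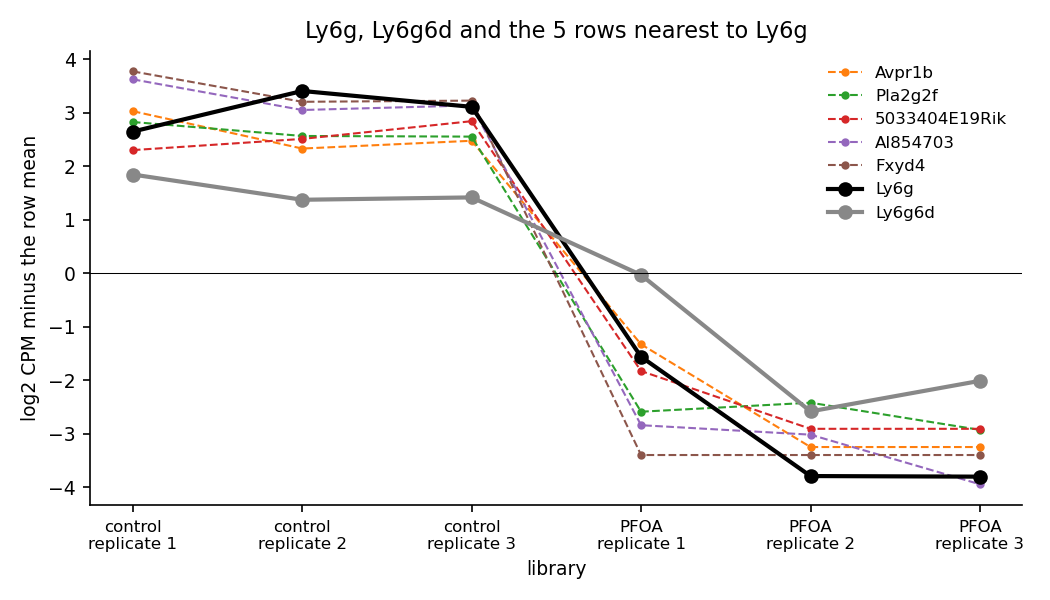
Log2 CPM minus the row mean (y axis) in each library for Ly6g (black), Ly6g6d (grey) and the 5 rows nearest to Ly6g (dashed); lines join the libraries of a row for the eye only. Ly6g and Ly6g6d keep more signal in PFOA replicate 1 than in PFOA replicates 2 and 3.

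Each other member had rows nearer to it than any other member, again from a search over far more rows than members. The nearest to Ly6g6e were S100a16, Ces2g, Inhba, 4933415A04Rik and Gsdma, at distances from 0.067 to 0.165. S100a16, a calcium-binding protein gene, gave 2233, 1637 and 1862 reads in the control libraries against 817, 530 and 540 with PFOA, and Ces2g, a carboxylesterase gene, had 475, 394 and 439 against 182, 107 and 114. The nearest rows to Ly6g6d were 2010106E10Rik, the row of Gm45901 and Aldh1l1, the row of 4930579F01Rik and 0610031O16Rik, Gm15401 and Gm12320, at distances from 0.331 to 0.446. The row of Gm45901 and Aldh1l1 gave 2704, 1966 and 2220 reads in the control libraries against 794, 277 and 281 with PFOA. The nearest to Lypd6b were Gm29561, Zfp791, Gstm6, Gm43128 and Gm16556, at distances from 0.138 to 0.171. Gm29561, with 4, 6 and 6 reads in control and none with PFOA, and Gm16556, with 4, 4 and 5 and none, have profiles shaped by the prior count. Zfp791, a zinc finger gene, gave 450, 771 and 661 reads in the control libraries against 209, 163 and 206 with PFOA. The nearest to Lypd6 were Bco1, Slc4a1, Crnn, Car4 and Gm33958, and to Ly6l Cers4, Gm43884, Ippk, Gm37897 and 4930502E18Rik; at so few reads in Lypd6 and Ly6l the prior count shapes these profiles too.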

How the data were processed

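The authors deposited one table of raw counts per gene row; per the submitters' processing notes, HISAT2, HTSeq and mm10 were used. Aligner version, strand use, handling of multi-mapping reads and the rule behind the listing: not given in the sources used here. The deposited table also gives each row's length in bases (other columns, per the file headers). Count columns were matched to samples by description; 0 other columns held single-library values. Counts were fitted with edgeR 4.0.16 (R 4.3.3) on the whole table: filterByExpr, TMM, glmQLFit and glmQLFTest without covariates, two-sided, Benjamini-Hochberg over 1608 rows at 0.05; the step was tested on simulated data. The SE is the absolute log2 fold change over the square root of F. Listed totals, 1771120 to 2269892, limit precision. No libraries agreed within sampling noise (smallest chi-square per degree of freedom 19.3). Alternatives were DESeq2 1.42.0, other scalings, no filter, a replicate block and leaving out each library. Members, lists and motifs were chosen with earlier results of these data known. Named rows were all members, the 5 nearest profiles of each, rows within 1 Mb and up to 5 most abundant rows of each list; some are not described. CPM in list sums uses listed totals, elsewhere TMM-adjusted ones. Gene structures and transcripts are GENCODE M21, promoters RefSeq GRCm38.p6.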

Additional observations from a re-analysis of the deposited data

How the results depend on the processing

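The log2 fold changes of Ly6g, Ly6g6d, Ly6g6e and Lypd6b stayed negative, with an adjusted p under 0.05, in all 11 alternatives each. Because the rows were listed for differing in this contrast, this was largely fixed in advance and is no support. The values describe how far the estimates moved. For Ly6g the log2 fold change lay between -6.16 and -5.86 over the 5 alternatives of test, scaling, filter and block. With 1 library left out it lay between -7.13 and -5.40. With 1 library left out, the count of rows called ranged from 1531 to 1663. Scaling by library totals alone moved the median log2 fold change of the 4 fitted members from -2.37 to -2.61. The median of all fitted rows, which falls between the lower and the higher rows, moved from -0.03 to -0.25. The count of rows called was 2031 of 2033 rows with no filter on low counts. With the replicate number as a block it was 1579, and Ly6g was at -6.16. Deviations of same-numbered libraries correlated at 0.11, -0.03 and 0.10 for numbers 1, 2 and 3. Those of control and PFOA libraries with different numbers correlated at -0.15 to 0.12. Whether the numbers pair the libraries was not tested. Without the filter, Lypd6 was at -2.55 and Ly6l at -4.31, the latter set by the prior count of the fit. At 7 control counts or fewer, as in Ly6l, the depth allows little to be said of a difference.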

Other observations

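Other GPI-anchored proteins of the gut surface were split where the Ly6 and Lypd rows were all lower. Of a list of 28 genes, 8 had a row, of which 4 were lower and 4 higher in PFOA. This is close to the 998 lower and 1035 higher rows of the whole table. Tff3, a secreted peptide of goblet cells, is among the 4 lower rows although it has no anchor. The lower rows with an anchor are thus Nt5e, Car4 and Gfra3. Nt5e, the ectonucleotidase CD73, gave 2643, 3144 and 2706 reads in the control libraries against 297, 311 and 294 with PFOA, a 9.13-fold difference. Car4, a membrane carbonic anhydrase of surface colonocytes, was 2.55-fold lower, with 7983, 16679 and 15340 reads in the control libraries against 3801, 6129 and 5301 with PFOA. Alpi, the intestinal alkaline phosphatase, went the other way, with 43, 87 and 59 reads in the control libraries against 944, 1039 and 1506 with PFOA. Of 33 genes that build and attach the anchor, 0 had a row, so they were not analysed here.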
